A study of Mus musculus with 4 samples.

Results

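The genes described here are 10 that hold the mouse egg in metaphase II or let it leave that arrest: Mos, Fbxo43, Fbxo5, Plk1, Cdc20, Fzr1, Cdc27, Anapc1, Ube2c and Ube2s. They were taken by symbol from a count table of 55291 features, and all 10 were found. RNA-seq was performed on total RNA of zygotes, the fertilised eggs before their first division, in 4 samples with 1 sample per group. The groups were zygotes injected in the S31A experiment, the S31A control zygotes, zygotes injected in the MO experiment, and the MO control zygotes. The sample names tie both injections to the histone variant H3.3, and the series concerns H3.3 made from maternal RNA while the zygotic genome begins to be transcribed. MO is not spelled out in the labels; in embryo injection work it usually means a morpholino, an antisense oligonucleotide. S31A reads, in protein notation, as an alanine in the place of a serine. Neither the treatment of the control zygotes nor the mouse strain, the hours after fertilisation or the number of zygotes per sample is given in the sources used here.

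Each sample had 2 count columns, called libraries 1 and 2 here. No source says whether they came from separate pools of zygotes, so they were not counted as replicates and no test between groups was possible. The libraries held 5661621 to 13233371 counts. All 10 of the egg and zygote marker genes, such as Zp3 and Gdf9, were detected in every sample, at 5598 to 12900 CPM summed over the list (CPM, counts scaled to a common total per library). The 10 markers of cumulus and granulosa cells summed to 44.3 to 158.6 CPM, nearly all of it Cyp19a1, at 35.9 to 158.6 CPM; Star had 24.2 CPM in S31A control library 1, and Amh, Foxl2, Fshr, Has2, Ptx3 and Tnfaip6 had no count in any library. The 8 markers of sperm and spermatids summed to 18.4 to 64.6 CPM, mostly Odf2, at 15.1 to 61.5 CPM, with Prm2 at up to 5.42 CPM, and with no count of Prm1, Tnp1, Tnp2, Akap4 or Smcp in any library. As a check of the labels, the H3.3 gene H3f3b had 2.27 and 10.5 CPM in the MO injected libraries, against 2212 and 1665 CPM in their controls. It had 2347 and 2592 CPM in the S31A injected libraries, against 1490 and 1837 CPM in their controls. The 7 markers of the 2-cell embryo summed to 45.64 to 309.0 CPM, mostly Tcstv1. In the S31A injected sample 6 were detected, 2 in the S31A control, 4 in the MO injected and 6 in the MO control. Zscan4c and Zscan4d had 14.43 and 29.98 CPM in S31A injected library 2. They had no count in S31A injected library 1 or in the S31A control libraries. Whether the samples were of the same stage was not tested.

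The arrested egg keeps the anaphase-promoting complex (APC/C), a ubiquitin ligase that marks cyclin B and securin for destruction, switched off. Mos is a kinase that starts the MAPK cascade, and this cascade strengthens Fbxo43 (also called Emi2), the inhibitor that holds the APC/C off. At fertilisation, calcium waves activate CaMKII, which marks Fbxo43 for recognition by the kinase Plk1, and Fbxo43 is destroyed. The APC/C then acts through its activators Cdc20 and Fzr1 (Cdh1), receives its first ubiquitin from Ube2c, and extends the chain with Ube2s. The transcripts measured in a zygote are largely those that the egg stored, and a lower count can mean fewer copies per zygote or fewer zygotes with the transcript; the 2 cannot be told apart in bulk RNA.

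Ranked by CPM per kilobase of deposited gene length, averaged over the 8 libraries, Plk1 (97.3) and Fbxo43 (96.2) were the most abundant of the 10. They were followed by Fbxo5 (45.9), Cdc27 (28.4), Mos (24.4), Ube2c (15.3), Cdc20 (13.03), Ube2s (6.28), Fzr1 (4.55) and Anapc1 (3.73). Over all 8 libraries every neighbour in this order overlapped the next. Deposited lengths join all exons of a gene, so they exceed the main transcript for some genes. On the length of the principal transcript Ube2c stood above Cdc27 at 41.2 CPM per kilobase, Ube2s above Mos at 26.1, and Anapc1 above Fzr1 at 6.97. The first place differed by experiment. Plk1 led in the S31A injected sample, at a mean of 135.2 CPM per kilobase, and in the S31A control sample, at 116.5, whereas Fbxo43 led in the MO injected sample at 131.1 and in the MO control sample at 104.6. The libraries of the leading gene overlapped those of the next in the S31A injected sample (Plk1 and Fbxo43) and in the MO control sample (Fbxo43 and Fbxo5), so the first place is not settled there. All 10 genes passed the filter of 10 CPM in at least 1 of the 2 samples in each comparison. Cdc20, at 8.525 CPM in the summed S31A control, did not reach it there. In both comparisons with that control it passed only through the other sample, where it was higher.

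**Figure D1:**
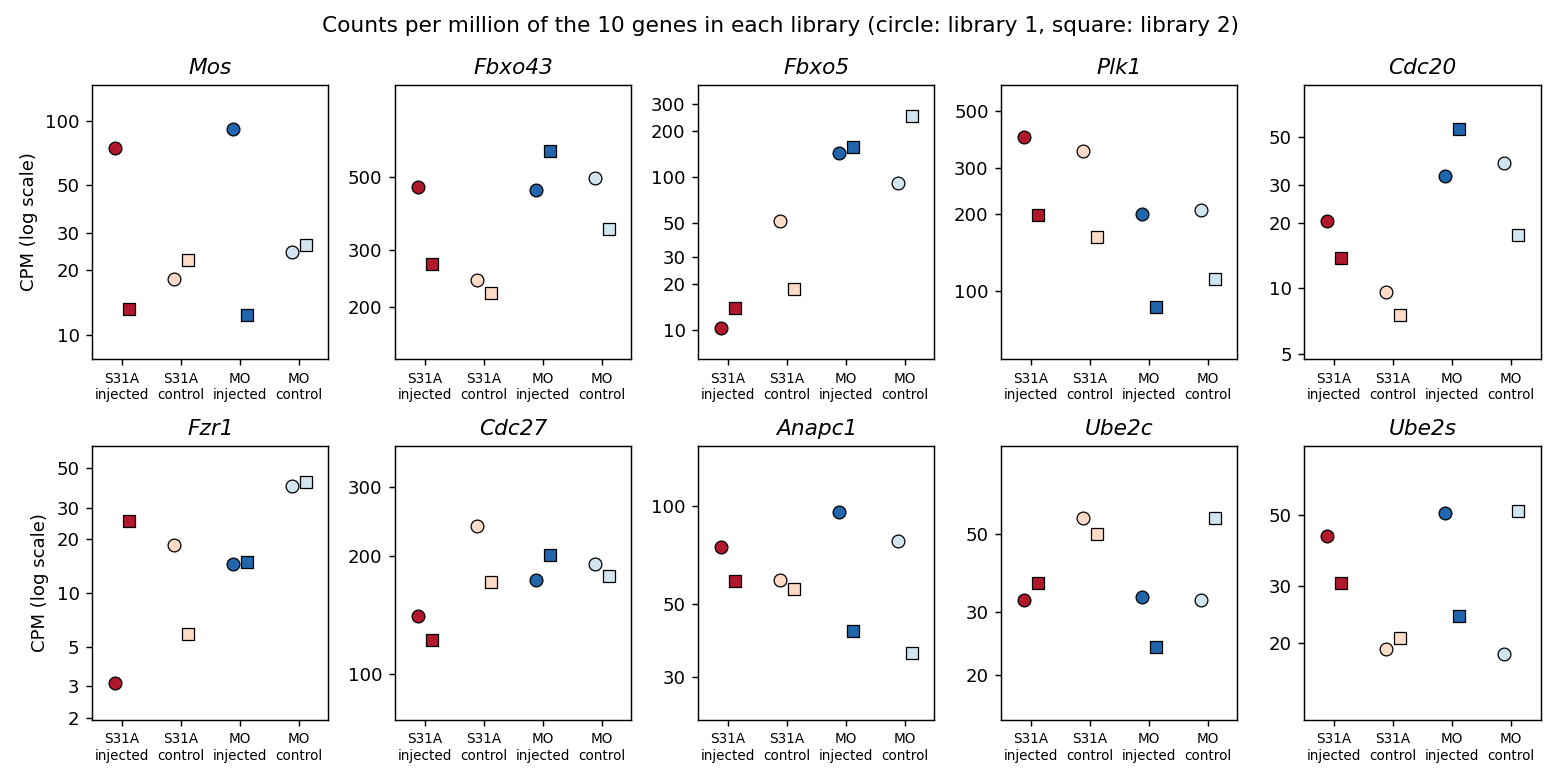
Level of each of the 10 genes in each of the 8 libraries, in CPM on a log axis, with S31A injected, S31A control, MO injected and MO control zygotes next to each other. Mos stands high in library 1 of both injected samples, at 74.4 and 91.8 CPM, and between 12.3 and 26.1 CPM in the other 6 libraries.

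In the MO experiment 1 of the 10 genes was at least 2-fold higher after injection (Mos), where 11.0% of 8183 measured genes were, and 1 was at least 2-fold lower (Fzr1), where 13.1% were. Fzr1 was the only one whose injected libraries both lay on the same side of both control libraries, against 40.5% of measured genes; it was lower, as 23.7% of measured genes were by this rule. In the S31A experiment 3 genes were at least 2-fold higher (Mos, Cdc20 and Ube2s), where 13.8% of 8142 genes were, and 1 was at least 2-fold lower (Fbxo5), where 16.3% were. Cdc20 entered this comparison through the injected sample alone. The libraries of 6 genes did not overlap there, against 39.6% of measured genes. They were 3 higher (Fbxo43, Cdc20 and Ube2s), where 16.7% of genes were, and 3 lower (Fbxo5, Cdc27 and Ube2c), where 22.9% were. The median log2 ratio of injected over control was 0.36 for the members and 0.01 for all measured genes in the S31A experiment, and 0.23 against 0.02 in the MO experiment. Leaving out injected library 1 turned the member median to -0.10 in S31A and to -0.45 in MO. Library totals alone as the scale moved the median of all genes in the MO experiment to -0.09.

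**Figure D2:**
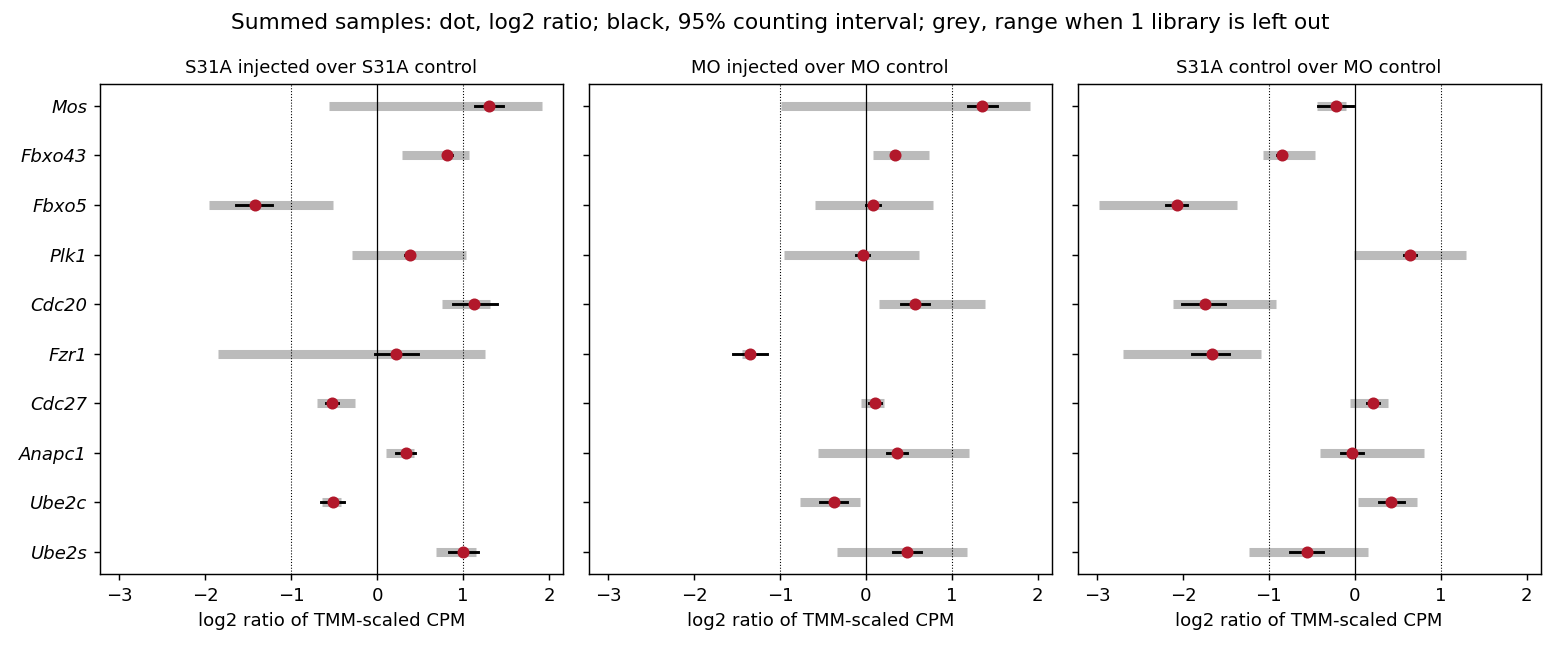
Log2 ratio of each gene in 3 comparisons, S31A injected over S31A control, MO injected over MO control, and S31A control over MO control, from summed libraries, with exact 95% intervals that cover counting error only; grey bars span the values with any single library left out. Fbxo5 lies furthest below 0 in the S31A and the control comparisons, at -1.43 and -2.07, and Fzr1 in the MO comparison, at -1.34.

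Of the arrest factors, Mos is described first. It lies on chromosome 4 of mm10 from 3870657 to 3872105 on the minus strand, in a single-exon gene whose deposited length is 1449 bases. Mos had 74.4 and 13.1 CPM in the S31A injected libraries, against 18.2 and 22.3 CPM in the S31A control libraries. It had 91.8 and 12.3 CPM in the MO injected libraries, against 24.3 and 26.1 CPM in the MO control libraries. In each injected sample library 1 stood above, and library 2 below, both control libraries. The summed log2 ratio was 1.30 with S31A (interval 1.14 to 1.47) and 1.35 with MO (1.19 to 1.53). It turned to -0.56 without S31A injected library 1 and to -0.99 without MO injected library 1, so its direction rests on those libraries. Those libraries also stood apart for some stored egg transcripts. Gdf9 had 3142 and 1124 CPM in the S31A injected libraries and 4611 and 489.1 CPM in the MO injected libraries. Zar1 had 2081 and 1362 CPM in the S31A injected libraries and 3588 and 458.2 CPM in the MO injected libraries. Other markers were close, such as Dppa3, at 971.4 and 984.8 CPM (S31A injected) and 934.3 and 882.2 CPM (MO injected). Of the 10 egg and zygote markers, library 1 was at least 2-fold above library 2 for 2 in the S31A injected sample. It was as far below for 0 there. After MO injection, library 1 was as far above for 5 markers and as far below for 1 (Bmp15). The 2 libraries were at least 2-fold apart, in either direction, for 39.7% of all measured genes with S31A injection and 38.4% with MO injection. The marker counts are therefore not shown to be particular to egg transcripts, and their part in the ratio of Mos was not tested. The 2 libraries of the MO injected sample were 7.46-fold apart for Mos. No shared origin of same-numbered libraries is stated, and over 7472 genes the deviations of library 1 from its sample's mean correlated at 0.099 in the MO experiment and -0.004 in the S31A experiment.

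Fbxo43, the inhibitor that Mos signalling sustains in the egg, lies on chromosome 15 from 36150060 to 36164884. It had 468.3 and 271.4 CPM in the S31A injected libraries, against 241.8 and 221.4 CPM in the S31A control libraries. Both injected libraries lay above both controls, and the summed log2 ratio was 0.82 (0.76 to 0.87), short of 2-fold. It was 0.29 without S31A injected library 1 and 1.07 without S31A injected library 2. Fbxo43 had 456.9 and 600.8 CPM in the MO injected libraries, against 497.4 and 346.4 CPM in the MO control libraries, which overlap (log2 ratio 0.34, between 0.09 and 0.73 with a single library left out). Per kilobase, Mos stood at 0.442 and 0.135 of Fbxo43 in the S31A injected libraries, against 0.210 and 0.280 in the S31A control libraries, and at 0.560 and 0.0571 in the MO injected libraries, against 0.136 and 0.210 in the MO control libraries.

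Fbxo5 (Emi1), a relative of Fbxo43 that inhibits the APC/C outside the egg's arrest as well, lies on chromosome 10 from 5799160 to 5805600. Its spread over the 8 libraries was the widest of the 10 members, at a root mean square of 1.61 in mean-centred log2(CPM + 1), against 0.278 for Cdc27, the most even. Fbxo5 had 10.3 and 13.8 CPM in the S31A injected libraries, against 51.5 and 18.4 CPM in the S31A control libraries. Both injected libraries were below both controls, and the log2 ratio was -1.43 (-1.64 to -1.23), 2.69-fold lower. This size rests on S31A control library 1: without it the log2 ratio was -0.51. In the MO experiment Fbxo5 had 142.4 and 158.0 CPM in the injected libraries, which lie between the 91.2 and 250.3 CPM of the control libraries, with a log2 ratio of 0.08 that ran from -0.59 to 0.78 as each library was left out. The S31A log2 ratio minus the MO log2 ratio was -1.51. In edgeR's quasi-likelihood interaction fit over the libraries, which compares libraries and not conditions, the difference was estimated at -1.34, with an adjusted p of 0.878. That fit called 4 of 10529 genes (0.038%), none of them a member.

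The 2 inhibitors stood in different proportions in the 4 samples. Fbxo43 per Fbxo5, in counts per kilobase, was 22.7 and 9.74 in the S31A injected libraries, against 2.33 and 5.98 in the S31A control libraries. It was 1.59 and 1.89 in the MO injected libraries, against 2.71 and 0.687 in the MO control libraries. The ratio was higher in both S31A injected libraries than in every other library of the series.

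Plk1, the kinase that prepares Fbxo43 for destruction, lies on chromosome 7 from 122159439 to 122169873. It had 396.5 and 197.9 CPM in the S31A injected libraries, against 350.1 and 162.4 CPM in the S31A control libraries. It had 199.5 and 86.7 CPM in the MO injected libraries, against 206.4 and 111.6 CPM in the MO control libraries. Library 1 was above library 2 in all 4 samples, and injected and control libraries overlapped in both experiments. The log2 ratio was 0.38 (0.33 to 0.43) with S31A and -0.04 (-0.11 to 0.04) with MO. Both depend on single libraries: with each library left out in turn the S31A value ran from -0.29, without S31A injected library 1, to 1.04, without S31A control library 1. The MO value ran from -0.95, without MO injected library 1, to 0.61, without MO control library 1.

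Among the activators, Fzr1 keeps the APC/C active after Cdc20 has started it. Fzr1 lies on chromosome 10 from 81366222 to 81378516. It had 14.4 and 14.9 CPM in the MO injected libraries, against 39.5 and 41.7 CPM in the MO control libraries. The libraries of each sample were close to each other and the samples well apart. The log2 ratio was -1.34 (-1.55 to -1.15), 2.54-fold lower, and it stayed between -1.44 and -1.35 when any of the 4 libraries was left out. Over the libraries edgeR's quasi-likelihood test gave an unadjusted p of 0.0399 and an adjusted p of 0.897. In the S31A experiment Fzr1 had 3.12 and 25.3 CPM in the injected libraries, against 18.6 and 5.86 CPM in the control libraries. Here the libraries of each sample lay further apart than the samples, by 8.12-fold in the injected one, and the log2 ratio was 0.22 (-0.02 to 0.47). Leaving out a single library moved it between -1.85, without the second injected library, and 1.26, without the first control library. The interaction fit gave the S31A ratio minus the MO ratio of Fzr1 an adjusted p of 0.964 (edgeR).

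Cdc20, the activator that starts the destruction of securin and cyclin B, lies on chromosome 4 from 118432901 to 118437352. It had 20.5 and 13.8 CPM in the S31A injected libraries, against 9.58 and 7.55 CPM in the S31A control libraries, so both injected libraries were higher. The log2 ratio was 1.13 (0.88 to 1.40), a 2.19-fold difference, and it was 0.75, short of 2-fold, without S31A injected library 1. Cdc20 had 33.0 and 54.5 CPM in the MO injected libraries, against 38.2 and 17.7 CPM in the MO control libraries. These overlap, and the log2 ratio was 0.57 (0.41 to 0.74), from 0.15 without MO injected library 2 to 1.39 without MO control library 1. Cdc20 per Fzr1, in counts per kilobase, was 5.48 and 8.77 in the MO injected libraries, against 2.32 and 1.02 in the MO control libraries. In the S31A experiment this ratio was 15.8 and 1.31 in the injected libraries, against 1.24 and 3.09 in the control libraries, which overlap.

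The counts of Cdc20 sit beside those of an intronless copy. Gm7856, annotated as a processed pseudogene on chromosome 16 from 91513141 to 91514633, matches the Cdc20 coding sequence at 93.6% identity, with identical runs of up to 114 bases. Cdc20 itself has 10 exons, and its coding sequence of 1500 bases is crossed by 9 exon junctions. The aligner named in the submitters' processing notes, Bowtie2, does not split reads across introns, and no source used here says how reads that match several places were counted. The 60 bases around the Cdc20 junction shown here join 2 exon blocks, chr4:118436694-118436723 and chr4:118436577-118436606 (mm10, minus strand), while in the copy they are continuous at chr16:91514281-91514340 (minus strand). Capitals mark the 3 bases that differ.
Cdc20: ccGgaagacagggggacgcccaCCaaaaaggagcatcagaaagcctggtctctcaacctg
Gm7856: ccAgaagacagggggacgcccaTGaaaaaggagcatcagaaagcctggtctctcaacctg
A read that lies within the identical stretch and crosses the junction matches only the copy without a gap. Gm7856 had 65.2 and 41.1 CPM in the S31A injected libraries, against 20.7 and 12.9 CPM in the S31A control libraries. It had 108.2 and 127.7 CPM in the MO injected libraries, against 119.8 and 60.4 CPM in the MO control libraries. Gm7856 thus held 63.0% to 77.4% of the counts of both features in every library. With the copy's counts added, an alternative chosen after seeing the data, the log2 ratio of Cdc20 was 1.61 (1.47 to 1.76) with S31A and 0.42 (0.34 to 0.50) with MO. Whether the counts on Gm7856 came from Cdc20 transcripts was not tested.

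Plk1 has a similar copy, Plk-ps1, on chromosome 5 from 35554184 to 35555970, with 93.4% identity and identical runs of up to 116 bases. The same kind of window joins chr7:122160675-122160704 and chr7:122161507-122161536 (mm10, plus strand) in Plk1 and is continuous at chr5:35554723-35554782 (plus strand) in the copy, with 1 base that differs, in capitals.
Plk1: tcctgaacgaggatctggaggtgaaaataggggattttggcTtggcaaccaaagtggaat
Plk-ps1: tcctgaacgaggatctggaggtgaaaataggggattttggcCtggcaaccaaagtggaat
Plk-ps1 had 108.0 and 48.3 CPM in the S31A injected libraries, against 158.9 and 35.2 CPM in the S31A control libraries. It had 81.3 and 23.0 CPM in the MO injected libraries, against 65.2 and 63.9 CPM in the MO control libraries. The copy held 17.8% to 36.4% of the counts of both, a smaller share than that on Gm7856 in every library. Adding it left the log2 ratio of Plk1 at 0.26 with S31A and -0.04 with MO. Ube2c has such a copy on chromosome 6, Gm8956, at 2.51 to 13.3 CPM, and with it the log2 ratios of Ube2c were -0.51 with S31A and -0.35 with MO. The copies of Fbxo5 found by the same search and listed in the count table were at 0.53 CPM or less in every library.

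**Figure D3:**
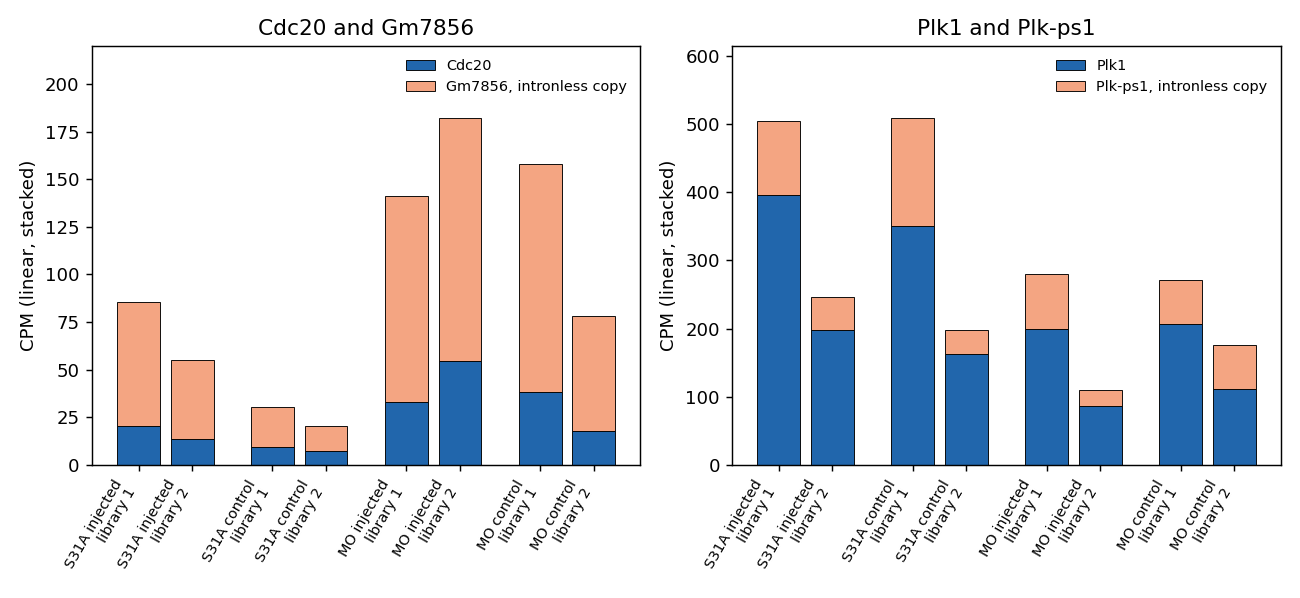
CPM of Cdc20 and of Plk1, each stacked with that of its intronless copy, Gm7856 and Plk-ps1, in every library of the S31A injected, S31A control, MO injected and MO control samples, on a linear axis. Gm7856 exceeds Cdc20 in all 8 libraries, with 63.0% to 77.4% of the counts of both, whereas Plk-ps1 holds 17.8% to 36.4%.

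Of the core subunits, Cdc27 and Anapc1 differed by less than 2-fold in every comparison. Cdc27, a scaffold subunit to which the activators bind, lies on chromosome 11 from 104502745 to 104550620. Cdc27 had 141.1 and 122.4 CPM in the S31A injected libraries, against 239.3 and 172.3 CPM in the S31A control libraries. It was lower in both injected libraries, with a log2 ratio of -0.53 (-0.59 to -0.46). It had 174.4 and 201.7 CPM in the MO injected libraries, against 190.5 and 178.2 CPM in the MO control libraries, with a log2 ratio of 0.11. Anapc1, the largest scaffold subunit, lies on chromosome 2 from 128610104 to 128687391. It had 74.8 and 58.7 CPM in the S31A injected libraries, against 59.2 and 55.7 CPM in the S31A control libraries, and 95.5 and 41.4 CPM in the MO injected libraries, against 78.0 and 35.5 CPM in the MO control libraries. Its libraries overlapped in both experiments, in S31A only narrowly, at 58.7 CPM injected against 59.2 CPM control. The log2 ratios were 0.33 (0.23 to 0.44) with S31A and 0.36 (0.24 to 0.48) with MO. The MO value turned to -0.56 without MO injected library 1 and was 1.20 without MO control library 1.

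The 2 ubiquitin-conjugating enzymes differed in direction in the S31A experiment, with Ube2c lower and Ube2s higher in the injected libraries. Ube2c, which adds the first ubiquitins, lies on chromosome 2 from 164769898 to 164778822. It had 32.4 and 36.3 CPM in the S31A injected libraries, against 55.3 and 49.7 CPM in the S31A control libraries, so both injected libraries were lower, with a log2 ratio of -0.52 (-0.65 to -0.38). Ube2c had 33.1 and 23.9 CPM in the MO injected libraries, against 32.4 and 55.3 CPM in the MO control libraries, which overlap (log2 ratio -0.38, between -0.76 and -0.07 with a single library left out). Ube2s, which extends the chains, lies on chromosome 7 from 4794546 to 4812590. It had 43.1 and 30.8 CPM in the S31A injected libraries, against 19.2 and 20.8 CPM in the S31A control libraries. Both injected libraries were higher, and the log2 ratio was 1.004 (0.84 to 1.18), at the edge of 2-fold: it was 0.91 with library totals alone and 0.68 without S31A injected library 1. Ube2s had 50.7 and 24.2 CPM in the MO injected libraries, against 18.5 and 51.2 CPM in the MO control libraries. These overlap widely, and the log2 ratio of 0.47 turned to -0.34 without MO injected library 1 and to -0.21 without MO control library 1, and was 1.18 without MO control library 2.

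Ube2c per Ube2s, in counts per kilobase of deposited length, was lower after both injections. It was 1.49 and 2.33 in the S31A injected libraries, against 5.71 and 4.73 in the S31A control libraries. It was 1.29 and 1.95 in the MO injected libraries, against 3.46 and 2.13 in the MO control libraries, a small gap at its nearest point. Among all 45 ratios of 2 members, 2 had injected libraries on the same side of their controls in both experiments (4.44%), this one and Fbxo43 per Cdc27, which was higher. Within the single experiments 42.2% of these ratios did not overlap in S31A and 26.7% in MO. The share that agrees in both experiments was not computed for ratios of other genes, so these 2 ratios are not shown to be particular to the members. Exons of Ube2c overlap those of Tnnc2 on the other strand by 592 bases and exons of Ube2s those of Rpl28 by 183 bases; no strand setting is stated for the counting, and the part of these neighbours in the counts was not tested.

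**Figure D4:**
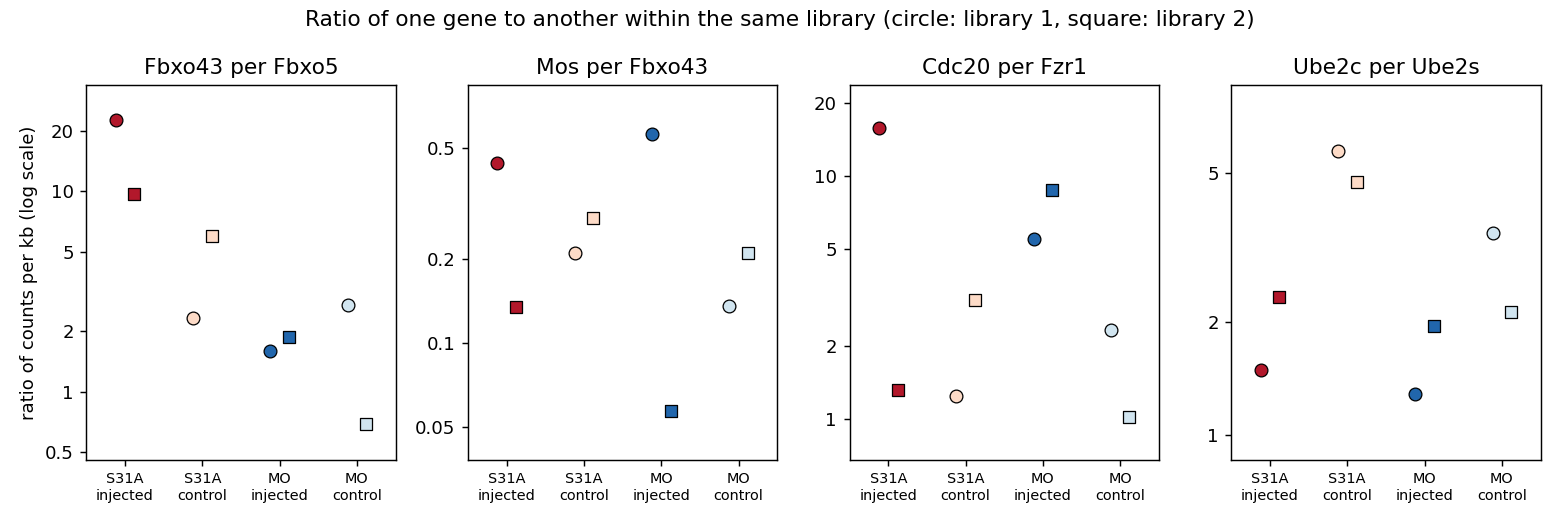
Ratios of 2 genes within the same library, in counts per kilobase of deposited length on log axes, for S31A injected, S31A control, MO injected and MO control zygotes. Fbxo43 per Fbxo5 reaches 22.7 in an S31A injected library, and Ube2c per Ube2s is lower in the injected libraries of both experiments.

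The control samples of the 2 experiments differed at several of these genes. S31A control over MO control, 3 of the 10 genes were at least 2-fold lower (Fbxo5, Cdc20 and Fzr1), where 16.7% of 8367 measured genes were, and 0 were at least 2-fold higher, where 13.4% were. Cdc20 entered this comparison through the MO control alone. Fbxo5 had 51.5 and 18.4 CPM in the S31A control libraries, against 91.2 and 250.3 CPM in the MO control libraries, 4.20-fold lower (log2 ratio -2.07, interval -2.19 to -1.95). Cdc20 (log2 ratio -1.74, interval -2.01 to -1.51) and Fzr1 (-1.67, -1.89 to -1.46) were lower in both S31A control libraries as well. The log2 ratio of Cdc20 was -0.92, short of 2-fold, without MO control library 1, and with Gm7856 added it was -2.26. That of Fzr1 lay between -2.70 and -1.09 with a single S31A control library, and that of Fbxo5 between -2.98 and -1.37 over the 4 libraries left out in turn. The libraries of 5 genes (Mos, Fbxo43, Fbxo5, Cdc20 and Fzr1) did not overlap, where 46.6% of measured genes did not. All 5 were lower in the S31A control, where 26.5% of measured genes were lower by this rule and 20.1% higher, and the median of the 10 was -0.39, against 0.04 for all measured genes. For Fbxo5, Cdc20 and Fzr1 these gaps between controls exceeded, in size, the injected over control log2 ratios in both experiments. For Fbxo43 the gap of -0.85 was close in size to the S31A ratio of 0.82. For Mos it was smaller, at -0.22 against 1.30 with S31A and 1.35 with MO. The controls belong to separate experiments, so experiment and control treatment cannot be told apart.

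Libraries of a sample also differed at these genes. On the log2(CPM + 1) scale, the 2 libraries were at least 2-fold apart for 2 of the 10 genes in the S31A injected sample, 3 in the S31A control sample, 4 in the MO injected sample and 4 in the MO control sample. Plk1 in the S31A injected sample lay just short on that scale, at 0.999, and was 2.003-fold apart in CPM. Over all measured genes this share was 39.7% in the S31A injected, 39.5% in the S31A control, 38.4% in the MO injected and 23.8% in the MO control sample. Over the libraries, edgeR's quasi-likelihood test called 0 of the 10 genes in any comparison at an adjusted p under 0.05, and 2 of 9551 genes in S31A (0.0209%), 2 of 9233 in MO (0.0217%) and 0 of 9543 between controls, where 856 genes had an unadjusted p under 0.05. DESeq2 called 587 genes in S31A (6.15%), 61 in MO (0.661%) and 398 between controls (4.17%). Of the 10 members DESeq2 called only Fbxo5 between controls, with an adjusted p of 0.0428, where edgeR gave 0.413.

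Other genes of the pathway were described in lists. Their counts stand beside the shares of all measured genes at least 2-fold apart, 13.8% higher and 16.3% lower with S31A, and 11.0% higher and 13.1% lower with MO, and the medians of all genes, 0.01 and 0.02. A count of 1 in a list, or of 2 of 11, is near these shares. Of 12 other APC/C subunits, 9 were measured in the S31A experiment, where 4 were at least 2-fold lower (Anapc2, Anapc7, Anapc15 and Anapc16) and 0 higher, with a median log2 ratio of -0.61. In the MO experiment 8 were measured, and 0 were 2-fold higher or lower (median -0.07). Anapc7 had 7.30 and 14.0 CPM in the S31A injected libraries, against 17.0 and 35.8 CPM in the S31A control libraries. Anapc16, a small subunit, had 51.0 and 101.3 CPM in the S31A injected libraries, against 240.6 and 113.5 CPM in the S31A control libraries. Both were lower in each injected library, while Anapc2 overlapped its controls (1.23 and 24.2 CPM injected, against 51.5 and 22.1 CPM control). Anapc15, which helps the complex escape the spindle checkpoint, had 0.492 and 0 CPM in the S31A injected libraries, against 26.5 and 4.79 CPM in the S31A control libraries. It passed the filter of 10 CPM through the S31A control alone, where it was high. The filter therefore partly set its place among the 4 lower subunits.

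In the Mos to MAPK cascade 5 of 7 genes were measured in each injection experiment, and 1 of them, Rps6ka1, a kinase that MAPK activates, was at least 2-fold higher in both, with 0 lower. Rps6ka1 had 7.22 and 18.6 CPM in the S31A injected libraries, against 1.34 and 7.55 CPM in the S31A control libraries, and 32.2 and 15.3 CPM in the MO injected libraries, against 0.656 and 18.9 CPM in the MO control libraries. Its libraries overlapped in both, as did those of every measured member of this list. In both experiments Rps6ka1 passed the filter of 10 CPM through the injected sample alone, where it was higher. Of 7 genes of the calcium signal, 6 were measured. Camk2g, a CaMKII gene, had 251.4 and 115.2 CPM in the S31A injected libraries, against 61.4 and 119.6 CPM in the S31A control libraries, which overlap. It was the 1 list member at least 2-fold higher there, with 0 lower. Camk2g had 92.4 and 173.4 CPM in the MO injected libraries, against 248.5 and 241.8 CPM in the MO control libraries. Both MO injected libraries were below their controls, and in that experiment 1 member of the list, the calcineurin subunit gene Ppp3r1, was at least 2-fold lower and 0 were higher. Ppp3r1 was at the edge of 2-fold, with a log2 ratio of -1.015. It had 66.7 and 251.3 CPM in the MO injected libraries, against 326.9 and 284.7 CPM in the MO control libraries, so library 2 was much nearer to the controls.

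A list of 12 genes of chromosome separation and mitotic exit holds APC/C substrates such as geminin, and also separase, which is freed when the APC/C destroys its inhibitor securin. Of these, 11 were measured with S31A and 12 with MO. With S31A 2 of them were higher by 2-fold or more and 0 were lower, at a median log2 ratio of 0.35. Espl1, which encodes separase, had 96.2 and 47.0 CPM in the S31A injected libraries, against 33.7 and 26.3 CPM in the S31A control libraries. Gmnn, which encodes the replication inhibitor geminin, had 105.4 and 140.7 CPM in the S31A injected libraries, against 65.8 and 57.8 CPM in the S31A control libraries. Both were higher in each injected library. In the MO experiment 0 were at least 2-fold higher and 1 was lower, Nek2, a centrosome kinase gene, with 16.7 and 77.4 CPM in the injected libraries, against 93.8 and 134.1 CPM in the control libraries. Of the CDK1 genes 13 of 14 were measured in each experiment. By 2-fold or more, 1 was higher and 1 lower with S31A, and 0 and 4 with MO (Wee1, Ccnb3, Cdc25b and Cdk1). In the MO experiment Wee1 passed the filter of 10 CPM through the control alone, where it was higher. The higher one with S31A was Ensa, whose libraries overlap, and the lower one was Cdc25a, a phosphatase gene that activates CDK1, with 29.5 and 27.5 CPM in the injected libraries, against 72.8 and 89.7 CPM in the control libraries. Of 8 spindle checkpoint genes, 7 were measured with S31A, with 0 higher and 1 lower (Trip13, whose libraries overlap), and 8 with MO, with 1 higher and 2 lower (Bub1 and Bub3). The higher one, Bub1b, had 704.1 and 55.6 CPM in the MO injected libraries, against 147.3 and 82.8 CPM in the MO control libraries, so it was high in library 1 and low in library 2 of that sample, as Mos was.

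For each member the gene nearest in pattern over the 8 libraries was sought among 7462 genes, by the root mean square difference of mean-centred log2(CPM + 1). Cdc27 was followed most closely, by Gm12543 at 0.104, then Ube2c by G6pdx at 0.132, Fbxo43 by E330034G19Rik at 0.171 and Anapc1 by Gga3 at 0.180. Cdc20 was nearest to Tex19.1 (0.234), Plk1 to Inpp5d (0.254), Ube2s to Gm1848 (0.279), Fbxo5 to Nop58 (0.355), Mos to Asap2 (0.361) and Fzr1 to Gab3 (0.483). The measure depends on a member's own spread over the libraries, and relative to that spread Fbxo5 (0.355 of 1.61) and Cdc20 (0.234 of 0.880) had nearer neighbours than Cdc27 (0.104 of 0.278). Among the members themselves, Cdc20 and Fbxo43 were the closest at 0.421 and Cdc27 and Ube2c next at 0.435.

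Stored egg transcripts are known to gain or lose their poly(A) tail through the cytoplasmic polyadenylation element (CPE), a U-rich motif near the 3′ end, and how the cDNA was primed is not stated in the labels. The last 120 bases of the principal transcript of each gene, or of its 3′ UTR where this is shorter as in Cdc20 (62 bases), were searched on the transcript's strand for TTTTAT or TTTTAAT, and for the polyadenylation hexamers AATAAA or ATTAAA. A CPE in one of these forms was found in 3 of the 10 members and in 20.1% of 18964 genes. A hexamer was found in 9 members and in 79.3% of genes. Other U-rich forms of the CPE were not searched, so a gene without these letters may still carry one. The sites of Fbxo43 at chr15:36150145-36150174, Fbxo5 at chr10:5799226-5799255 and Cdc20 at chr4:118432918-118432947 (mm10, all minus strand) are shown because these 3 genes carry the motif, with the motif in capitals.
Fbxo43: gtatatatgtgtTTTTATactatacacaca
Fbxo5: aatgtgagttttTTTTATatctgtgaatac
Cdc20: ttcttgtttttaTTTTATtttttctaataa
In Mos, neither TTTTAT nor TTTTAAT lay in the window, which does not show that it lacks a CPE. Its hexamer at chr4:3870661-3870690 (minus strand), in capitals, is 16 bases from the end.
Mos: atatttttaggaAATAAAgttaccacgaac
Among the 3 genes with the motif, Fbxo43 and Cdc20 were higher and Fbxo5 lower in both S31A injected libraries.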

How the data were processed

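RNA of zygotes was sequenced in 4 samples, 1 per group. The labels' protocols describe washed embryos, PCR amplification of cDNA and the NEBNext Ultra II DNA kit. FastQC, Bowtie2, featureCounts, DESeq2 and mm10 are named in the submitters' processing notes; no version, annotation, strand setting or rule for multiply matching reads is given in the sources used here. The authors deposited raw counts per gene and gene lengths in bases, per the file headers. The 2 count columns of a sample are called libraries. They differed by a chi-square of 51.5 to 130.4 per degree of freedom, more than sampling noise gives.

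Levels are CPM of the library total. For ratios, the libraries of a sample were added and TMM scaling was applied (edgeR 4.0.16, R 4.3.3). The main value was the log2 ratio with a prior count of 2 and an exact 95% Clopper-Pearson interval. Genes entered a comparison when a sample in it reached 10 CPM, and were counted at 2-fold. No molecular identifiers are stated, so intervals cover counting error only. edgeR's quasi-likelihood test and DESeq2 1.42.0, both with Benjamini-Hochberg adjustment, compare libraries, not conditions; their spread is that between libraries of a sample and may be technical. Of these steps, only edgeR's quasi-likelihood test was tried on simulated counts, for the 2 injection comparisons. Copies were sought with BLAST+ 2.17.0 by aligning each coding sequence to the transcripts of GENCODE M21 (minimum identity 85%, minimum coverage 80%). Sequences are from that annotation and its genome, where all 10 members have the deposited coordinates.

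The members and lists were chosen with earlier results of these data known. The rule for named genes took the 10 members, up to 3 genes per list with the largest log2 ratio in either direction in each comparison, and the gene nearest to each member in pattern. Anapc16, Cdk1 (in MO), the marker genes and the intronless copies lie outside it; they were picked with their values in view. Alternatives were DESeq2 size factors, library totals alone, other filters and prior counts, a joint fit of all libraries, the library number as a block, and each library left out.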

Additional observations from a re-analysis of the deposited data

How the results depend on the processing

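The log2 ratios of the members kept their sign in 174 of 176 values under other scalings, filters, prior counts and added copies, and in 101 of 120 with a library left out. The exceptions in the first set were Fbxo5 (-0.03) and Cdc27 (-0.0015) in the MO experiment with library totals alone. Mos reversed, to -0.9947 without MO injected library 1 (range to 1.9045) and to -0.5636 without S31A injected library 1 (range to 1.9171). A minimum of 50 CPM left 6 members measured in MO, 5 in S31A and 6 between controls, with 0 lower in MO, 0 higher and 0 lower in S31A, and 1 lower between controls, whose member median became 0.0918; library totals alone made that median -0.4633. Genes at least 2-fold higher and lower numbered 2376 and 3537 in MO, 2879 and 3120 in S31A and 2417 and 4178 between controls at 1 CPM. At 50 CPM they numbered 331 and 291, 296 and 288, and 327 and 417, and with no filter 3114 and 5539, 3577 and 3715, and 2759 and 6470. Library totals alone changed the share of higher genes among the MO calls to 36.2%, where it was 45.6%. With CPM scaled by TMM factors over the libraries, 7 members did not overlap in S31A, where the main rule gave 6. Anapc1 was the one added. In place of edgeR, DESeq2 called 61 genes in MO, 587 in S31A and 398 between controls; edgeR called 4 in MO at 1 CPM and 4 in S31A with all 8 libraries in the fit. The library number as a block gave 4 calls in MO; the numbers stand only in column names, and the deviations of library 1 correlated at 0.099, -0.004 and -0.058 in the MO, S31A and control comparisons, so they were not taken to pair the samples. With a library left out, members 2-fold higher ran from 0 to 3 in MO, 1 to 4 in S31A and 0 to 1 between controls, and members 2-fold lower from 0 to 2 in S31A. The member median ran from -0.4462 to 0.4137 in MO, -0.0955 to 0.9305 in S31A and -0.5519 to -0.3118 between controls, and MO genes from 666 to 1381 higher and 990 to 1925 lower. For these changes the cause was not tested. Of the members in the S31A experiment, Cdc20 (0.88 to 1.40) and Fzr1 (-0.02 to 0.47), both near 10 CPM, had the widest intervals for counting error. With a library left out, Fzr1 ranged further than its interval, from -1.8542 to 1.2577.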
